A study of Mus musculus with 4 samples.

Results

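The 39 *Hox* genes of the 4 mouse clusters and the *Cdx* genes *Cdx1*, *Cdx2* and *Cdx4* are described here in day 3 embryoid bodies (EBs). They were chosen by symbol, as every row of the expression values that is named for a *Hox* cluster and a paralog number or for 1 of these 3 *Cdx* genes, and they make up 42 of 24347 gene rows. EBs are floating clusters formed by differentiating mouse embryonic stem cells (mESCs), here in ESC medium with 15% serum from which LIF had been left out. The vessel is given as bacterial plates, while the methods of the study name an ultra-low attachment dish. The comparison was between WT mESCs and mESCs whose *Gm11549* promoter had been deleted (promoter KO), with 2 samples of each genotype, numbered 1 and 2 within each. *Gm11549* encodes the micropeptide NEMEP. All 4 samples carry the strain label 129/Ola, a cell type label that names mesendoderm derived from ES cells, and no treatment beyond EB formation. The promoter KO lines were made with CRISPR/Cas9, and the labels do not say whether promoter KO 1 and promoter KO 2 are separate clones or cultures of 1 clone. The study describes the 2 samples of a genotype as biological replicates, and since the labels do not say how they were kept apart, the p-values measure the spread between these samples only.

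Expression is given in FPKM, a measure of fragments that corrects for transcript length and library size. The FPKM of all genes summed to 677777 and 696928 for WT 1 and WT 2, and to 673951 and 679870 for promoter KO 1 and 2. Depth was estimated from the value that 1 fragment gives to genes with a single annotated transcript, and came to about 25200000, 22600000, 22000000 and 20500000 fragments in the same order. At this depth a listed 0 of a *Hox* or *Cdx* gene allows up to 3 fragments, which is between 0.0399 and 0.189 FPKM in WT 1 and between 0.0492 and 0.233 FPKM in promoter KO 2, depending on the transcript. These limits cover counting error only.

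*Hox* genes encode homeodomain transcription factors that give cells their position along the head-to-tail axis. Within a cluster they are switched on in order, low paralog numbers first in the posterior primitive streak and high paralog numbers later and nearer to the tail, and Polycomb complexes keep the genes silent before that. *Cdx* genes encode caudal-type homeodomain factors that respond to Wnt and Fgf signals of the streak and activate *Hox* genes of the trunk, and *Cdx2* also acts in trophectoderm.

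The targeted gene came first as a check of the genotype labels. *Gm11549* had 0.750 FPKM (WT 1), 0.522 FPKM (WT 2), 0 (promoter KO 1) and 0.0659 FPKM (promoter KO 2). The promoter KO samples were the 2 lowest, as their labels say, and no sample reached 1 FPKM. The values correspond to about 49.0, 30.5, 0 and 3.48 fragments on its single annotated transcript.

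The WT samples differed from each other in many of the genes described here. Of the 42 genes, 13 were highest in WT 2 and 4 in WT 1, while promoter KO 1 was the highest sample for 11 and promoter KO 2 for 12, and *Hoxa6* and *Hoxc11* were at 0 throughout. The 42 genes together reached 54.4 FPKM in WT 2, against 18.0 (WT 1), 16.0 (promoter KO 1) and 18.2 FPKM (promoter KO 2). Among the 11941 genes tested across the transcriptome, WT 2 exceeded WT 1 by more than 1 on the log2 scale in 112 and fell below it by as much in 15, while promoter KO 2 exceeded promoter KO 1 in 43 and fell below it in 48. Over all genes the WT samples were as alike as the promoter KO samples (Spearman correlation 0.981 and 0.980). The tested *Cdx* and *Hox* genes and the calls in lists of other genes are therefore also given without it.

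A gene was counted as on in a genotype when both its samples reached 1 FPKM. By this threshold 3 of the 42 genes were on in WT EBs, namely *Cdx1*, *Cdx2* and *Hoxd1*. The same 3 genes were on in promoter KO EBs, together with *Hoxc13* and *Hoxd13*, which makes 5. *Hoxb1*, *Hoxb2* and *Hoxb3* reached 1 FPKM in WT 2 only. In every sample, 33 of the 42 genes stayed below 1 FPKM and 30 below 0.5 FPKM. For comparison, between 48.0% and 48.5% of all gene rows reached 1 FPKM in each sample.

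**Figure D1:**
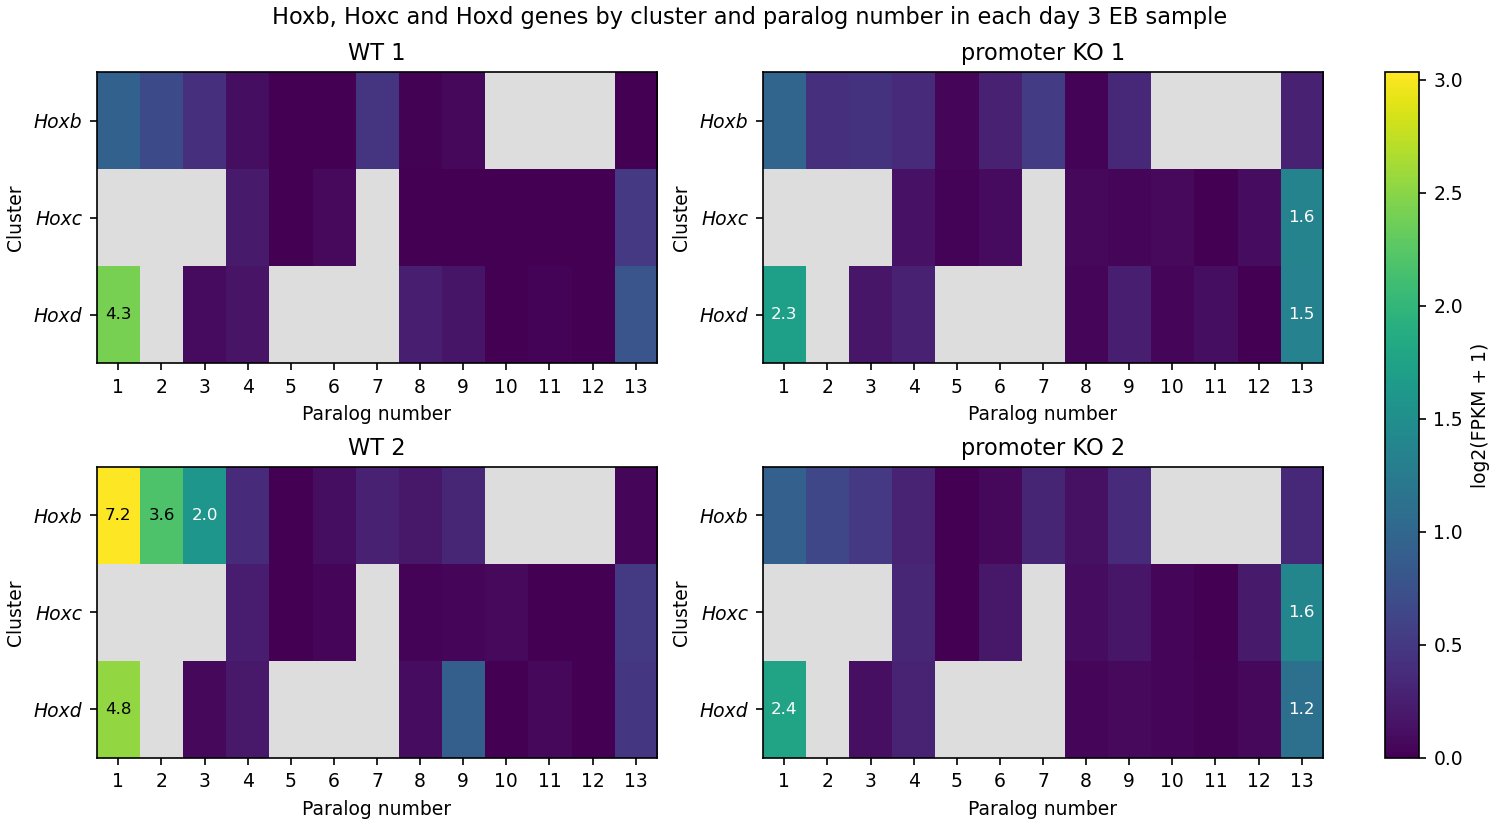
The genes of *Hoxb*, *Hoxc* and *Hoxd* are placed by cluster (rows) and paralog number (columns) in each of the 4 samples, coloured by log2(FPKM + 1), with grey where the mouse has no gene and the FPKM written where it is at least 1. Written values stand at *Hoxd1* in all samples, at paralog numbers 1 to 3 of *Hoxb* in WT 2 only, and at number 13 of *Hoxc* and *Hoxd* in the promoter KO samples only.

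*Cdx2*, the most abundant of the 42 genes in any single sample, was at 5.77 (WT 1), 25.4 (WT 2), 2.49 (promoter KO 1) and 5.51 FPKM (promoter KO 2). The genotypes did not overlap, but WT 1 and promoter KO 2 differed little, and WT 2 stood far above the other samples. The log2 fold change, on the log2(FPKM + 1) scale throughout, was −1.49 (standard error 0.635, 95% confidence interval from −3.04 to 0.07) and did not pass the test (adjusted p = 0.177, limma with Benjamini-Hochberg adjustment over all tested genes). Without WT 2 it was −0.51 (adjusted p = 0.547, and from 0.0319 to 0.547 over all alternatives, limma). In bulk samples, fewer cells that express a gene and less of its RNA per cell cannot be told apart, here and in all results that follow.

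*Cdx1*, which like *Cdx2* is a Wnt-responsive gene of the streak, was at 2.47 (WT 1), 5.07 (WT 2), 2.31 (promoter KO 1) and 1.46 FPKM (promoter KO 2). Again WT 2 was the highest and WT 1 lay close to promoter KO 1, although both promoter KO samples were below both WT samples. The log2 fold change was −0.69 (standard error 0.298, adjusted p = 0.182) and −0.28 without WT 2 (adjusted p = 0.602, and from 0.101 to 0.602 over all alternatives, limma). *Cdx4*, the X-linked gene of the family, was at 0.0585, 0.329, 0.0334 and 0.0723 FPKM, in the order WT 1, WT 2, promoter KO 1 and promoter KO 2. It was highest in WT 2 as well, at about 12.8 fragments against 1.27 to 2.54 in the other samples, and its genotypes overlapped.

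**Figure D2:**
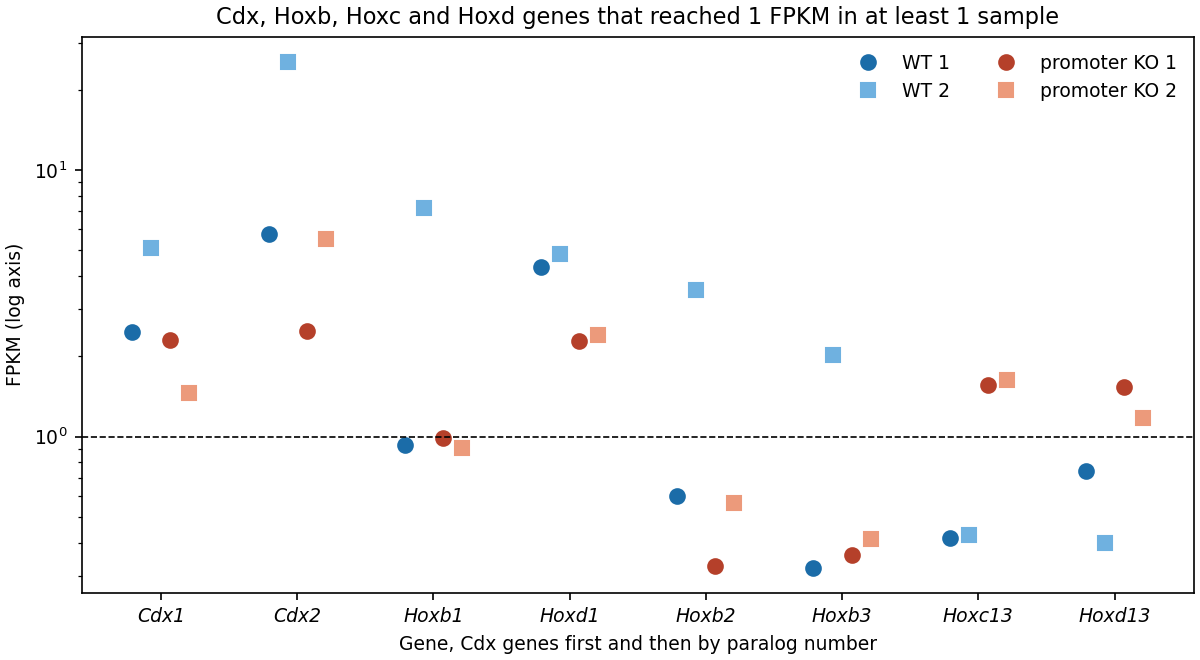
Shown are the *Cdx*, *Hoxb*, *Hoxc* and *Hoxd* genes with 1 FPKM or more in any sample, with 1 point for each sample on a log axis of FPKM, and the dashed line marks 1 FPKM. WT 2 is the highest point of *Cdx1*, *Cdx2*, *Hoxb1*, *Hoxb2* and *Hoxb3*, and the genotypes do not overlap in *Cdx1*, *Cdx2*, *Hoxb2*, *Hoxd1*, *Hoxc13* and *Hoxd13*.

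*Hoxd1*, at the end of its cluster that is transcribed first in the embryo, was the *Hox* gene with the steadiest difference among those of paralog numbers 1 to 3. It was at 4.33 (WT 1), 4.84 (WT 2), 2.29 (promoter KO 1) and 2.41 FPKM (promoter KO 2), or about 177, 177, 81.6 and 79.8 fragments. The samples of each genotype lay close together and the genotypes were well apart. The log2 fold change was −0.74 (standard error 0.141, 95% confidence interval from −1.08 to −0.39), and its adjusted p of 0.0509 in limma was just above the threshold of 0.05. Leaving out any 1 sample gave values from −0.80 to −0.67, the latter without WT 2 (adjusted p = 0.247, and from 0.0436 to 0.247 over all alternatives).

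*Hoxb1*, the *Hox* gene with the highest value in a single sample, was at 0.929 (WT 1), 7.19 (WT 2), 0.985 (promoter KO 1) and 0.904 FPKM (promoter KO 2). WT 1 lay between the promoter KO samples, so that the genotypes overlapped and the difference of the means came from WT 2. *Hoxb2* was at 0.600, 3.56, 0.326 and 0.564 FPKM in the same order of samples. Here both promoter KO samples were below both WT samples, with WT 1 only slightly above promoter KO 2.

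*Hoxb3* was at 0.323 (WT 1), 2.02 (WT 2), 0.359 (promoter KO 1) and 0.412 FPKM (promoter KO 2), with WT 1 the lowest of the 4 samples. *Hoxb1*, *Hoxb2* and *Hoxb3* reached 1 FPKM in WT 2 only, were below the filter of 1 FPKM in at least 2 samples and were not tested. WT 2 held 7.74 times the *Hoxb1* level of WT 1, 5.93 times that of *Hoxb2* and 6.26 times that of *Hoxb3*.

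*Hoxa3* showed the same pattern at a lower level, with 0.617 FPKM in WT 2 and between 0.0345 and 0.106 FPKM in the other samples. *Hoxa2*, with 0.129 (WT 1), 0.116 (WT 2), 0.0885 (promoter KO 1) and 0 FPKM (promoter KO 2), came to about 5 fragments or fewer in each sample. *Hoxd3* was at most at 0.136 FPKM.

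Promoter sequences from RefSeq (GRCm38.p6, 250 bases before the annotated start, 5′ to 3′ on the gene's strand) were matched by symbol for 24 of the 42 genes, in 26 windows. Those of *Hoxb1*, *Hoxd1*, *Hoxd13* and *Cdx2* are printed because these genes show the contrasting patterns, values highest in WT 2 in *Hoxb1* and *Cdx2*, and genotypes without overlap in *Hoxd1*, with the promoter KO values below, and in *Hoxd13*, with them above. *Hoxd1*, *Hoxd13* and *Cdx2* did not pass the test, and *Hoxb1* was not tested. Capitals mark CpG dinucleotides, of which clusters at *Hox* promoters are known as places where Polycomb complexes gather. The *Hoxb1* window is chr11:96365508-96365757 (plus strand), the *Hoxd1* window chr2:74762730-74762979 (plus strand), the *Hoxd13* window chr2:74667975-74668224 (plus strand) and the *Cdx2* window chr5:147307250-147307499 (minus strand).
Hoxb1: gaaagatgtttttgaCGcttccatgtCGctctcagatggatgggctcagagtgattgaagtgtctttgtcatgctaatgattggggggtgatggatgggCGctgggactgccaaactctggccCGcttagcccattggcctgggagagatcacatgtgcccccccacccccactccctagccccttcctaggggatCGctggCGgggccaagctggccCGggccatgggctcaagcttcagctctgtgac
Hoxd1: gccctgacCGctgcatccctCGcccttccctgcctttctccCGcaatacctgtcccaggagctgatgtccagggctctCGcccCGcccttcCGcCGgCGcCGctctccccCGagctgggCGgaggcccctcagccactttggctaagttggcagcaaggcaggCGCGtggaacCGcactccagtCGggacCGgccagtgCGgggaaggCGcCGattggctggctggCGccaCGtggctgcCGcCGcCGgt
Hoxd13: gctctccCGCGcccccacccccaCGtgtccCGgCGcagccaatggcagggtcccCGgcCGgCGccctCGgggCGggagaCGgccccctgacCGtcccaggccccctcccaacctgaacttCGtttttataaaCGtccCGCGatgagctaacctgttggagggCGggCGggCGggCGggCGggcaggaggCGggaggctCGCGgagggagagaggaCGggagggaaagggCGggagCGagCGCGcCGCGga
Cdx2: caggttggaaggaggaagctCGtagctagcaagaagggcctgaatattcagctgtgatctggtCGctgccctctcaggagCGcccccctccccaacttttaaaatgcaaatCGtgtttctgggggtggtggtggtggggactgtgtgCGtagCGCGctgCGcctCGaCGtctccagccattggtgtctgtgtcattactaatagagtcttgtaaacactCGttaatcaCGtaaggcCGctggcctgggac

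The *Hoxd1* and *Hoxd13* windows hold 24 and 31 CpG dinucleotides, the *Cdx2* window 13 and the *Hoxb1* window 7. The median was 12.5 in the 26 windows of the members, with a range from 2 in a window of *Hoxd11* to 35 in that of *Hoxa13*, and 6 in all 32851 windows of the table. On both strands, CTTTGA, a core bound by TCF and LEF factors of the Wnt pathway, is in 3 of the 26 windows (*Hoxa10*, *Hoxd8* and *Hoxd12*) and in 13.8% of all windows. AGGTCA, the half-site of retinoic acid receptors, is in 6 of them and in 14% of all windows, and TTTATG, a core bound by CDX factors, is in 5 and in 10.8%. TGATNNAT, a form of the joint HOX and PBX site, is in 4 windows and in 7.68% of all, among them that of *Hoxb1*, where it begins 162 bases before the start. GGTGTG, a T-box core, is in 2 windows (*Hoxa2* and *Hoxd9*) and in 16.3% of all. The windows of *Hoxd1*, *Hoxd13* and *Cdx2* hold none of the 5 motifs, and these matches are descriptions of letters, chosen after the expression values were seen.

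Of the 15 genes of paralog numbers 4 to 8, none reached 1 FPKM in any sample, and their levels summed to 1.12 (WT 1), 1.65 (WT 2), 1.99 (promoter KO 1) and 2.09 FPKM (promoter KO 2). *Hoxa7* stood out among them, at 0.0696 (WT 1), 0.0782 (WT 2), 0.529 (promoter KO 1) and 0.686 FPKM (promoter KO 2). Its promoter KO samples were close to each other and well above the WT samples, at about 20.6 and 24.7 fragments against 3.10 and 3.12. It was not tested, since no sample reached 1 FPKM, and promoter KO minus WT, as means of log2(FPKM + 1), came to 0.58 against a pooled SD of 0.07 between replicates. Without *Hoxa7*, the highest of the sums above was in WT 2.

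*Hoxa5* was listed at 0 in WT 1 and promoter KO 1, at 0.381 FPKM in WT 2 and at 0.0597 FPKM in promoter KO 2, which is about 14.1 fragments in WT 2 and 1.99 in promoter KO 2. Its genotypes overlapped, and WT 2 alone was high. *Hoxd8* had 0.193 FPKM (WT 1) and 0.0740 FPKM (WT 2), above promoter KO 1 at 0.0315 FPKM and promoter KO 2 at 0.0270 FPKM. *Hoxb7*, by contrast, paired high and low samples within both genotypes, namely 0.385 and 0.216 FPKM for WT and 0.441 and 0.239 FPKM for promoter KO. *Hoxb4*, *Hoxc4* and *Hoxd4* stayed between 0.0853 and 0.292 FPKM, and *Hoxa4*, *Hoxa6*, *Hoxb5* and *Hoxc5* came to about 1 fragment or fewer in each sample.

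At the other end of the clusters, *Hoxc13*, which in the adult is known for its part in hair formation, was at 0.416 (WT 1), 0.427 (WT 2), 1.57 (promoter KO 1) and 1.62 FPKM (promoter KO 2), or about 23.3, 21.4, 76.6 and 73.6 fragments. The samples within a genotype were nearly equal and the genotypes did not overlap. The log2 fold change was 0.87 (standard error 0.150, 95% confidence interval from 0.50 to 1.24, adjusted p = 0.0467, limma), and 1.92 as log2 of the ratio of mean FPKM, with no pseudocount. The fragments of both samples summed to 44.7 in WT (95% Poisson interval from 32.8 to 60.2) and to 150.2 in promoter KO (from 127 to 176), intervals that cover counting error only and not the spread between samples.

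Of the 42 genes only *Hoxc13* passed an adjusted p of 0.05, and only 5 passed the filter on low values. Over all 11941 tested genes, promoter KO EBs had 226 at a lower (1.89%) and 201 at a higher level (1.68%). An unadjusted p under 0.05 (limma) was reached by 3649 of them, the background for such counts in the lists below. *Hoxc13* and *Hoxd13* passed the filter only through the promoter KO samples, in which they are high, so that they had to differ in order to be tested at all. The call of *Hoxc13* was lost when any 1 of the 4 samples was left out (adjusted p from 0.0695 to 0.216, against 0.0388 to 0.216 over all alternatives, limma), while the log2 fold change stayed between 0.85 and 0.88. Permuting 2 and 2 samples exactly reaches no two-sided p below 0.333 for any gene, so the calls depend on the sharing of variance across genes in limma.

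*Hoxd13*, the gene of digits and the hindmost trunk, was at 0.743 (WT 1), 0.398 (WT 2), 1.53 (promoter KO 1) and 1.17 FPKM (promoter KO 2). Both promoter KO samples were above both WT samples, with a wider spread than in *Hoxc13*. The log2 fold change of 0.59 (standard error 0.187, 95% confidence interval from 0.13 to 1.05) did not pass the test (adjusted p = 0.106, limma), and it was 0.43 without WT 2 (adjusted p = 0.407, and from 0.0836 to 0.407 over all alternatives). *Hoxb13* followed the same order far lower, at 0, 0.0414, 0.211 and 0.275 FPKM in WT 1, WT 2, promoter KO 1 and promoter KO 2, and about 9.13 and 11.0 fragments in the promoter KO samples against 0 and 1.84.

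*Hoxa13* went the other way. It had 0.333 (WT 1), 0.124 (WT 2), 0 (promoter KO 1) and 0.0916 FPKM (promoter KO 2), the WT samples being the 2 highest, with about 18.1 and 6.04 fragments against 0 and 4.03. The 4 genes of paralog number 13 summed to 1.49 (WT 1), 0.991 (WT 2), 3.31 (promoter KO 1) and 3.17 FPKM (promoter KO 2), so that both promoter KO sums were above both WT sums.

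Between these ends, the remaining genes of paralog numbers 9 to 12 were low. *Hoxd9* was at 0.128 (WT 1), 0.887 (WT 2), 0.195 (promoter KO 1) and 0.0525 FPKM (promoter KO 2), and WT 2 alone was high. *Hoxb9* was at 0.0484, 0.254, 0.276 and 0.297 FPKM, with WT 1 alone low. *Hoxc12* and *Hoxd10* were listed at 0 in both WT samples and came to about 1 to 3 fragments in each promoter KO sample, a difference that the depth cannot resolve.

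The 16 genes of paralog numbers 9 to 13 together were at 1.86 (WT 1), 2.40 (WT 2), 4.38 (promoter KO 1) and 4.13 FPKM (promoter KO 2). *Hoxc13* and *Hoxd13* made up most of the promoter KO sums.

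**Figure D3:**
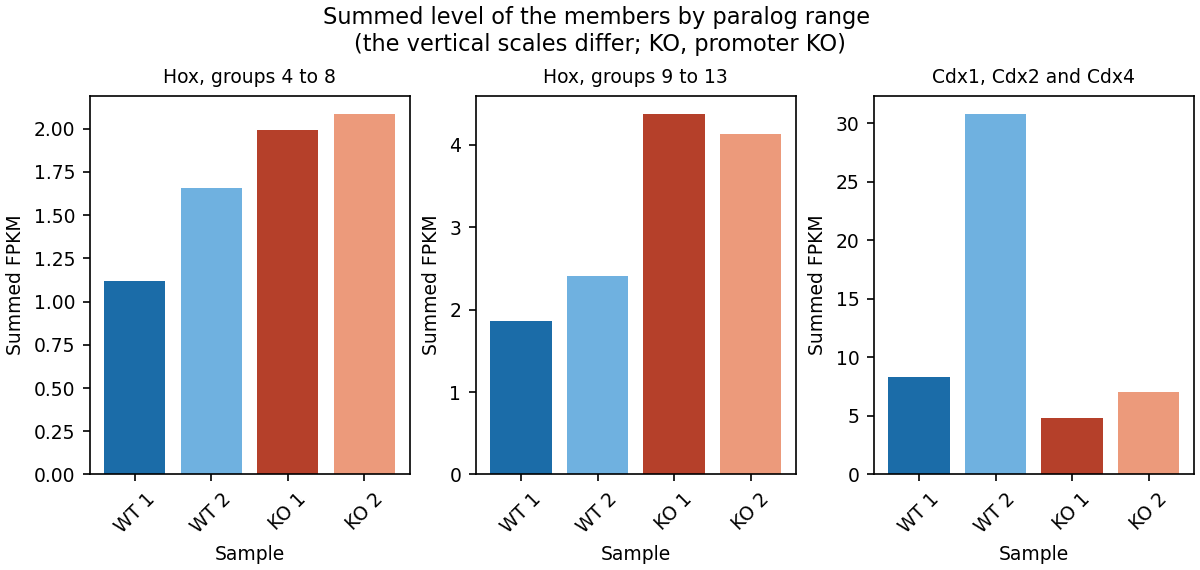
Bars give the summed FPKM of the *Hox* genes of paralog numbers 4 to 8 and 9 to 13 and of the *Cdx* genes, 1 bar for each sample, on vertical scales that differ and start at 0. The WT bars are the taller ones for *Cdx*, with WT 2 at 30.8 FPKM. The promoter KO bars are the taller ones at paralog numbers 4 to 8 and 9 to 13. At numbers 4 to 8 this order came from *Hoxa7*, without which WT 2 had the highest sum. The genes of numbers 1 to 3, which are not drawn, summed to 6.74 (WT 1), 19.5 (WT 2), 4.79 (promoter KO 1) and 4.95 FPKM (promoter KO 2). Both promoter KO sums were below both WT sums there, but without *Hoxd1* WT 1 fell below both promoter KO samples.

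By cluster, *Hoxd* had the highest sum in WT 1 (5.59 FPKM) and in both promoter KO samples (4.51 and 4.08 FPKM), which rested on *Hoxd1* and *Hoxd13*, and was at 6.45 FPKM in WT 2. *Hoxb* summed to 2.39 (WT 1), 13.8 (WT 2), 3.15 (promoter KO 1) and 3.07 FPKM (promoter KO 2). It was the highest cluster in WT 2 only, and without WT 2 its promoter KO sums were above WT. *Hoxa* summed to 1.11, 2.62, 1.54 and 1.60 FPKM in the same order, with the promoter KO samples between the WT samples. *Hoxc*, which has no gene of paralog numbers 1 to 3, was the lowest cluster in WT 1, at 0.634 FPKM, and in WT 2, at 0.744 FPKM, and lay above *Hoxa* in promoter KO, at 1.96 and 2.42 FPKM.

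In 7 of the 42 genes both promoter KO samples were below both WT samples, and in 14 both were above, where the same held for 19.9% and 22.1% of all 24347 gene rows. The 7 were *Cdx1*, *Cdx2*, *Hoxa2*, *Hoxa13*, *Hoxb2*, *Hoxd1* and *Hoxd8*. The counts depended on the WT samples, with 16 below and 15 above when WT 1 was left out (28.7% and 29.1% of all gene rows) and 8 below and 21 above when WT 2 was left out (26.9% and 28.3% of all gene rows). Some of the 14 above rest on few fragments: among the 27 genes with at least 10 estimated fragments over the 4 samples, 7 were below and 8 above, where the same held for 29.7% and 31.6% of the 15150 rows of any gene with as many. The median difference between genotypes was 0.02 over the 42 genes and 0.00 over all gene rows. Centring or quantile normalization of the samples changed no direction among the 5 tested genes.

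**Figure D4:**
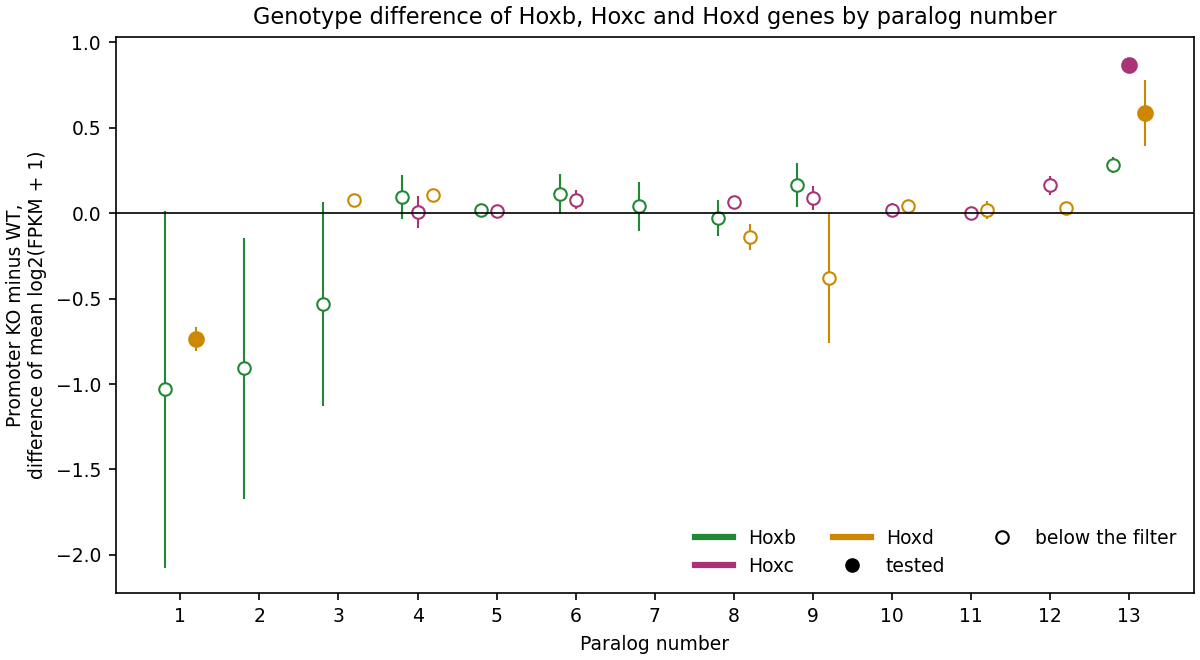
Promoter KO minus WT, as the means of log2(FPKM + 1), is plotted against paralog number for the genes of *Hoxb*, *Hoxc* and *Hoxd*, with filled points for the 3 tested genes, open points for genes below the filter and lines of 1 pooled SD between replicates on each side. Long lines at paralog numbers 1 to 3 of *Hoxb* show the gap between the WT samples, and the points with short lines farthest from 0 are *Hoxd1* and *Hoxc13*.

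The position of the genes in the GENCODE M21 annotation of the same genome build sets limits to some of these values. The clusters span 105.3 kb on chromosome 6 (*Hoxa*), 173.9 kb on chromosome 11 (*Hoxb*), 115.8 kb on chromosome 15 (*Hoxc*) and 96.8 kb on chromosome 2 (*Hoxd*). *Hoxd1* (chr2:74762980-74765142), *Hoxd13* (chr2:74668310-74671599), *Hoxc13* (chr15:102921103-102928814) and *Hoxb1* (chr11:96365752-96368256) overlap no other annotated gene, have 2 exons each and share no near-identical transcript stretch with another gene. *Hoxb2* and *Hoxb3* overlap the antisense gene *Hoxb3os* and *Hoxa7* overlaps *Hoxaas3*, and as no source states whether counting was stranded, reads of such pairs cannot be told apart. *Hoxaas3* was at 0.0743 FPKM in WT 2 and was listed at 0 in the other samples. Whether its reads entered the *Hoxa7* values was not tested. *Hoxa3*, *Hoxc5* and *Hoxd3* have transcripts that run across neighbouring genes of their clusters, so their values and those of the neighbours are uncertain. The tested genes of chromosome 6, where *Hoxa* lies, had a median log2 fold change of 0.13, against values between −0.01 and 0.02 on the other chromosomes that hold members.

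Genes that flank the clusters were compared as well. Their list leaves out *Evx1*, a *Hox*-linked gene that is given below with the ParaHox relatives and was called lower. Of 22 flanking genes found in the files, 14 were tested and 0 passed an adjusted p of 0.05 in limma (7 had an unadjusted p under 0.05, and 3 were called with the replicate block), with a median log2 fold change of −0.03 and single values from −0.71 to 0.52, and the most abundant, *Atp5g2* beside *Hoxc*, was at 759, 906, 631 and 699 FPKM in WT 1, WT 2, promoter KO 1 and promoter KO 2. Of the 10 non-coding RNAs of the clusters, *Hotair*, *Hottip* and *Hoxb5os* were listed at 0 in all samples. The most abundant, *Hotairm1*, was at 0, 1.37, 1.87 and 0 FPKM in WT 1, WT 2, promoter KO 1 and promoter KO 2, without an order by genotype. *Halr1* next to *Hoxa* (WT 0.125 and 0.138 FPKM, promoter KO 1.45 and 0.321 FPKM) had its higher values in promoter KO, and *Haglr*, which overlaps *Hoxd3* (WT 0.914 and 1.29 FPKM, promoter KO 0.368 and 0.661 FPKM), had the reverse order, neither of them tested. Only *Hotairm1* was tested, and the count of calls was 0 (0 with an unadjusted p under 0.05, limma).

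HOX proteins bind DNA together with TALE homeodomain cofactors of the PBX and MEIS families. Of 9 such genes 7 were tested, and *Meis3* was lower in promoter KO, at 12.4 (WT 1), 13.2 (WT 2), 5.65 (promoter KO 1) and 7.22 FPKM (promoter KO 2) (−0.90 on the log2 scale, adjusted p = 0.0433, limma). The median log2 fold change of the 7 was −0.49, and the most abundant was *Pbx2*. The *Meis3* call was lost with no filter, without the trend and when WT 1, WT 2 or promoter KO 1 was left out.

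Among 27 genes of the posterior embryo, which encode parts of the Wnt pathway, factors of the Fgf and TGF-beta families and transcription factors of the streak and axial progenitors, 25 were tested, 6 were lower (*Mesp1*, *Mixl1*, *Evx1*, *Sp5*, *Fgf8* and *Fgf17*) and 0 were higher in promoter KO EBs (limma, 15 with an unadjusted p under 0.05). The count was 0 without WT 2 (14 unadjusted), without promoter KO 1 (13 unadjusted), without the trend and with no filter (15 unadjusted in both), 2 without WT 1 or with median centring, and 11 without promoter KO 2, of which 3 were higher. Their median log2 fold change was −0.49 against 0.00 over all tested genes, and *Ctnnb1* was the most abundant. *Fgf8*, which feeds into *Cdx* transcription, had 196 and 213 FPKM (WT) against 48.9 and 77.7 FPKM (promoter KO). Other genes were picked after their values had been seen because WT 2 was their highest sample, as in *Cdx2* and *Hoxb1*. *Wnt3a* was at 0.933, 2.67, 0.144 and 0.0582 FPKM, *Msgn1* at 0.846, 22.6, 0.280 and 0 FPKM and *Tbx6* at 1.29, 6.74, 0.307 and 0.597 FPKM in WT 1, WT 2, promoter KO 1 and promoter KO 2. In these 3 genes, unlike *Hoxb1*, WT 1 was also above both promoter KO samples.

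**Figure D5:**
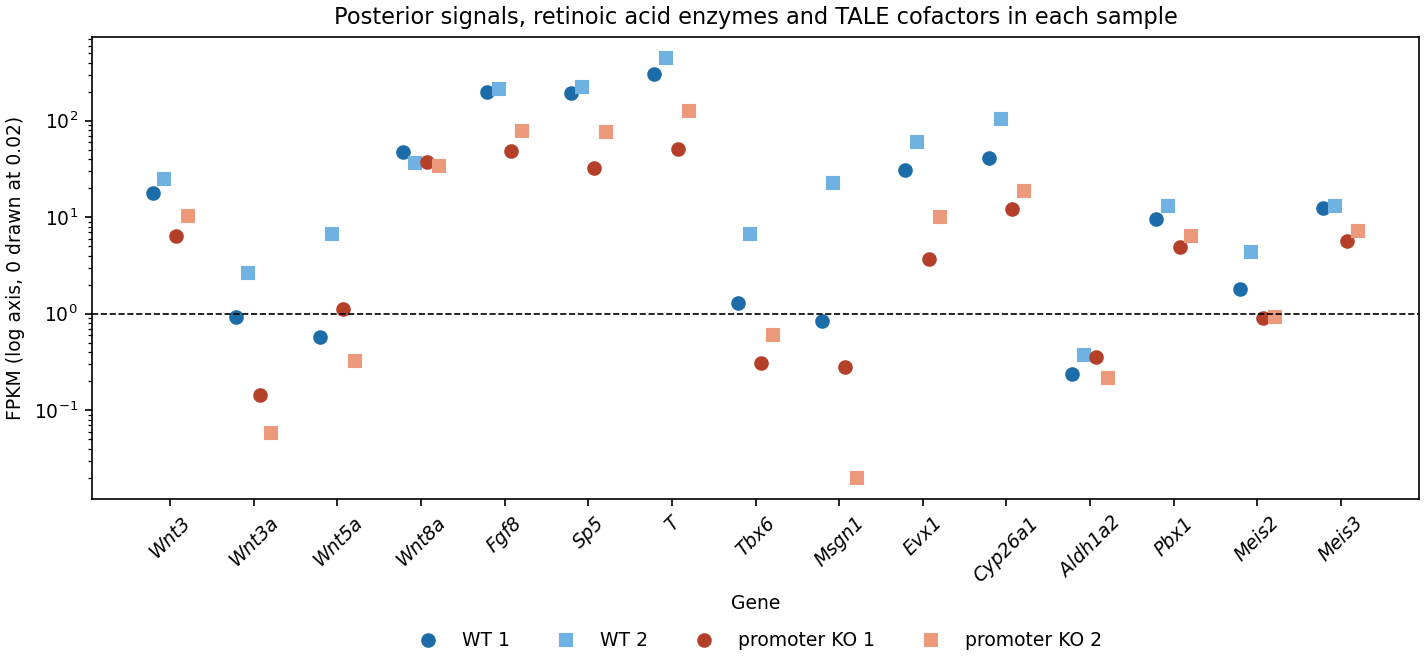
Points give the FPKM of 15 genes of posterior signals, retinoic acid turnover and TALE cofactors in each sample on a log axis, with 0 drawn at 0.02, and the 15 were selected after their values had been seen. Most WT points lie above the promoter KO points, and WT 2 is set apart in *Wnt5a*, *Tbx6* and *Msgn1*.

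Retinoic acid induces *Hox* genes of low paralog numbers. Of 18 genes of its pathway 10 were tested, and 0 passed an adjusted p of 0.05 (8 with an unadjusted p under 0.05, beside 3649 of all 11941 tested genes, limma), with a median log2 fold change of −0.16 and *Rxrb* the most abundant. The synthesis gene *Aldh1a2* stayed between 0.217 and 0.375 FPKM in all samples, and *Cyp26a1*, which clears retinoic acid and was also picked after its values had been seen, was at 41.1 (WT 1), 105 (WT 2), 12.2 (promoter KO 1) and 18.8 FPKM (promoter KO 2) (adjusted p = 0.0575, limma), and was called without WT 1 and with the replicate block. Of 32 Polycomb genes 31 were tested and 0 were called (11 with an unadjusted p under 0.05, limma), with a median of 0.03 and *Rbbp7* the most abundant, and 4 were called with the replicate block and 1 without promoter KO 2. Of 13 Trithorax and H3K27 demethylase genes all were tested and 0 were called (5 with an unadjusted p under 0.05), with a median of 0.25 and *Dpy30* the most abundant.

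Homeobox relatives outside the clusters were compared as well. Of 12 ParaHox and related genes 3 were tested and *Evx1*, the most abundant, was lower (WT 30.5 and 59.6 FPKM, promoter KO 3.70 and 10.1 FPKM), while *Evx2*, the neighbour of *Hoxd13*, was at 0 in all samples. Of 13 anterior homeobox genes 3 were tested, *Lhx1* and *Gsc* were lower, and the most abundant, *Otx2*, had a log2 fold change of 0.01. The *Evx1* call held only with the replicate block and without promoter KO 2, those of *Lhx1* and *Gsc* were lost without WT 2, without promoter KO 1 and with no filter, and that of *Gsc* also without WT 1 or the trend.

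Marker genes of cell types served to check the cell type label and to place the *Hox* and *Cdx* values, and their part in the result was not tested. The mesendoderm label is the same for all samples, while the 12 primitive streak and mesoderm markers were all above 0 in WT and *Msgn1* was at 0 in promoter KO 2. Of these markers 6 of 11 tested were lower in promoter KO (*Mesp1*, *Lhx1*, *Mixl1*, *Evx1*, *Gsc* and *Fgf8*) and 0 higher. All 6 were already called in the posterior or anterior homeobox lists above, so they are not separate results. In this list and every other marker list, 0 genes were called without WT 2, without promoter KO 1 and with no filter (limma, here with 11, 9 and 10 genes at an unadjusted p under 0.05). They summed to 919 (WT 1), 1241 (WT 2), 184 (promoter KO 1) and 366 FPKM (promoter KO 2), with *T* the most abundant, and WT 2 was the highest sample as it was for *Cdx2*. Epiblast markers had higher sums than these in every sample, at 2510, 2075, 3245 and 3014 FPKM with *Pou5f1* at the top, and 3 of 8 were higher in promoter KO (*Utf1*, *Pou3f1* and *Dnmt3a*). Naive pluripotency markers summed to 191, 222, 310.4 and 219 FPKM, led by *Nanog*, with 0 of 9 tested called (6 with an unadjusted p under 0.05, limma). The median log2 fold change of the 9 was 0.85, while that of *Nanog* itself was −0.38.

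*Cdx2* also marks trophectoderm, and *Hoxa13* the allantois. Of 10 trophoblast markers 5 were tested and *Tfap2c*, the most abundant, was lower, with sums of 19.8, 39.8, 16.0 and 15.4 FPKM, while *Tpbpa* and *Prl3d1* were at 0 in all samples and *Elf5* at most at 0.0473 FPKM. Of 8 markers of extraembryonic mesoderm and allantois 3 were tested and *Etv2*, the most abundant, was lower, with sums of 29.1, 52.3, 19.0 and 12.9 FPKM. Of 12 extraembryonic endoderm markers, all tested and none at 0, 7 were higher (*Lama1*, *Amn*, *Cubn*, *Dab2*, *Col4a1*, *Ttr* and *Sox7*) and *Gata6* was lower, with sums of 129.9, 116, 131 and 185 FPKM and *Foxa2* the most abundant. *Foxa2* alone was at 76.5 (WT 1), 39.0 (WT 2), 19.7 (promoter KO 1) and 37.5 FPKM (promoter KO 2) and so weighed on these sums. The study counts *Foxa2* and *Sox17* among mesendoderm factors, and neither was called here. The median log2 fold change of the 12 markers was 1.54. *Cubn* and *Sox7* were below 1 FPKM in both WT samples. They passed the filter only through the promoter KO samples, in which they are high, and had to differ in order to be tested. These calls in limma ended when WT 2 or promoter KO 1 was left out and with no filter, as in the other marker lists. With no filter, 10 of the extraembryonic endoderm markers had an unadjusted p under 0.05 (limma). The calls of *Tfap2c*, *Gata6*, *Dab2* and *Ttr* also ended without promoter KO 2 or the trend, and that of *Sox7* also without WT 1.

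Of 8 neural markers 3 were tested and *Sox3*, the most abundant, was higher in promoter KO, with sums of 42.3, 42.3, 61.5 and 54.5 FPKM that are mostly *Sox3*, while the median log2 fold change of the 3 was −0.49. Of 6 primordial germ cell markers 4 were tested and *Tfap2c* and *Dnd1*, the latter the most abundant, were lower, with sums of 29.5, 48.7, 15.4 and 17.0 FPKM. Of 9 fibroblast markers 3 were tested and 0 were called (1 with an unadjusted p under 0.05, limma), with sums of 14.6, 13.6, 18.4 and 12.6 FPKM, *Thy1* the most abundant and *Lum* and *Postn* at 0. The *Sox3* call held under the replicate block alone, and those of *Tfap2c* and *Dnd1* ended without WT 2, without either promoter KO sample, without the trend and with no filter.

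Day 3 EBs thus expressed few *Hox* genes, with *Hoxd1* and the *Cdx* genes *Cdx1* and *Cdx2* on in both genotypes. Both promoter KO samples had lower values of *Hoxd1* and higher values of *Hoxc13* and *Hoxd13* than both WT samples. Of these *Hoxc13* alone passed the test, a call that was lost when any 1 sample was left out, with no filter and with quantile normalization, for a gene that reached the test only through its promoter KO values. The higher *Hoxb1*, *Hoxb2*, *Hoxb3* and *Cdx2* of the WT group came mainly from WT 2.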

How the data were processed

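The FPKM values were taken as deposited by the authors, 1 file for each sample, and no reads were aligned here. The processing notes of the submitters name HISAT2 2.1.0, Cufflinks and Cuffnorm with mm10, while the methods of the study name TopHat, Cufflinks, the GENCODE M4 annotation, Cuffdiff and RPKM, and the values cannot settle which was used. Whether counting was stranded is not given. The files do not name the unit, which was taken from the notes.

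Of the gene rows, 11941 reached 1 FPKM in 2 or more samples and were tested on log2(FPKM + 1) with limma 3.58.1 (trend) in R 4.3.3, with Benjamini-Hochberg adjustment over all tested genes and a call at adjusted p under 0.05. Tables and plots used Python 3.11.15, pandas 2.3.3, numpy 2.4.6, scipy 1.17.1 and matplotlib 3.10.9. Positions came from GENCODE M21, promoters from RefSeq GRCm38.p6, and BLAST 2.17.0 searched the transcripts for stretches with at least 95% identity over at least 200 bases.

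Alternatives were a pseudocount of 0.1, no filter, a filter of 0.5 FPKM, no trend, median centring, quantile normalization, a replicate block, leaving out each sample, a ratio without pseudocount and thresholds of 0.5 and 2 FPKM. Counts of genes without overlap were repeated with at least 10 fragments and without each WT sample, alternatives that were added after the values were seen. Fragments were estimated from the step between values of genes with a single transcript, at a fragment length of 245 bases that gave the sharpest step among 24 tried, also after the data were seen. Of 31 such fragment values of the genes reported, 18 lay within 0.1 of a whole number, so the estimates are approximate. For the *Hox* and *Cdx* genes the length was that of the longest protein-coding transcript. Where a gene has several transcripts, as *Hoxa3*, *Hoxa7* and *Hoxa13* do, its fragments depend on that choice.

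Genes are named where they are *Hox* or *Cdx* genes, are called members of a list, are the most abundant of a list or are at 0 throughout, and other genes are said to have been picked after their values were seen. *Meis3*, *Aldh1a2*, *Halr1*, *Haglr*, *Otx2* and *Elf5* were named for their roles with values known. The lists (posterior signals, retinoic acid pathway, TALE cofactors, Polycomb, Trithorax and H3K27 demethylases, cluster non-coding RNAs, ParaHox relatives, anterior homeobox genes, flanking genes and 9 sets of cell type markers) were written with earlier results known.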

Additional observations from a re-analysis of the deposited data

How the results depend on the processing

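Over 12 alternatives, 0 of the 60 values of the 5 tested genes changed sign. Leaving out 1 sample ended the *Hoxc13* call (0 calls in each case, adjusted p from 0.0695 to 0.216, 2 to 5 genes with an unadjusted p under 0.05, limma), as did no filter (0 calls, 6 unadjusted) and quantile normalization (0 calls, adjusted p = 0.0506, 3 unadjusted). With a replicate block 3 genes were called (*Cdx2*, *Hoxc13* and *Hoxd1*), although the samples share only a number and the correlation of paired residuals was 0.0348. Over all alternatives the adjusted p ranged from 0.0388 to 0.216 for *Hoxc13*, 0.0436 to 0.247 for *Hoxd1*, 0.0836 to 0.407 for *Hoxd13*, 0.0319 to 0.547 for *Cdx2* and 0.101 to 0.602 for *Cdx1*. Genes on in WT were 5 at 0.5 FPKM and 3 to 7 when 1 sample was left out. Genes on in promoter KO were 7 at 0.5 FPKM, 2 at 2 FPKM and 5 whichever sample was left out. Genes with promoter KO below WT numbered 7 with at least 10 fragments, 16 without WT 1 and 8 without WT 2, and those above 8, 15 and 21, beside 29.7%, 28.7% and 26.9% below and 31.6%, 29.1% and 28.3% above of all gene rows so restricted. The *Gm11549* difference was −2.50 with a pseudocount of 0.1, −4.27 as a ratio and −0.76 to −0.56 when 1 sample was left out. Of all tested genes 427 were called, 1202 with the replicate block (667 lower, 535 higher), 283 (126 lower, 157 higher) with median centring, 82 without the trend, 0 without a filter (4059 unadjusted), and 0 to 486 when 1 sample was left out (1875 unadjusted without WT 2, 2009 without promoter KO 1).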
